A study of Rattus norvegicus with 46 samples.

Results

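The glycolysis, lactate and glycogen genes described here are 35 rows of a table of 32552 genes, chosen by symbol from a list of the enzymes and transporters that carry glucose to lactate and into and out of glycogen. All 35 symbols were found. The table holds counts of bulk RNA libraries from the liver and the quadriceps, a thigh muscle, of wild-type (WT) rats made obese by diet. Vehicle rats were the controls, weight-matched rats were food-restricted to match body weight, and CagriSema rats received cagrilintide, an amylin analog, combined with semaglutide, a GLP-1 receptor agonist. Treatment lasted 20 days for liver per the series' design text, which names no time for muscle. No strain, age or sex is stated in the sources used here, and all groups share the diet-induced obesity. Quadriceps had 7 vehicle, 8 weight-matched and 8 CagriSema libraries, and liver had 8, 8 and 7. Nothing in the labels ties 1 library to 1 animal, so each p-value refers to the scatter among these libraries, which may be technical.

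Glycolysis splits glucose into pyruvate, and lactate dehydrogenase turns pyruvate into lactate, which monocarboxylate transporters carry across the membrane. Skeletal muscle stores glucose as glycogen and breaks it down with its own phosphorylase, and fast fibres carry more glycolytic enzyme than slow fibres. Several steps have muscle isoforms alongside isoforms found in other tissues, and the liver runs much of the pathway in reverse to release glucose.

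Levels are CPM, counts scaled to a common library total, after scaling by TMM, a factor that evens out library composition, and were scaled within each tissue. A member was called when its adjusted p fell under 0.05 in edgeR's quasi-likelihood test over all genes tested in the tissue. Library totals ran from 11462369 to 16525274 counts in quadriceps and from 9888858 to 15948219 in liver. A count of 0 allows up to 0.183 to 0.255 CPM in quadriceps and 0.182 to 0.364 CPM in liver, for counting error only. All 35 members passed the filter on low counts in quadriceps and 31 did in liver, where Aldoc, Fbp2, Slc16a3 and Slc2a4 were too low to test. Together the members took 3.73% to 6.53% of a quadriceps library and 0.278% to 0.450% of a liver library. Defining markers of each tissue were present in it, with fast-fibre markers summing to at least 77579 CPM in every quadriceps library and hepatocyte markers to at least 105416 CPM in every liver library. Myh1, Myh2 and Atp2a1 of the fast-fibre list matched no row and were not analysed here.

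Some vehicle libraries stood apart. In quadriceps, libraries 2 and 5 lay far out on the second principal component, and vehicle libraries 5, 7 and 8 held the highest slow-fibre sums of their group, 8662, 13190.2 and 13631 CPM, against 816 to 2632 CPM in the other 4 vehicle libraries and 485 to 8743 CPM in weight-matched and CagriSema libraries. Mitochondrially encoded genes took 22.8% of the counts of vehicle library 8 and 10.96% to 18.96% in the other 22. In liver, vehicle library 4 lay at 134 and vehicle library 6 at 39.1 on the first component, and liver vehicle library 1 held 66.3 CPM of fast-fibre markers against 1.06 to 3.52 CPM in the other 22 liver libraries. Mitochondrially encoded genes took 9.29% of the counts of liver vehicle library 6 and 4.09% to 5.81% in the other 22. Counts of called members against vehicle are given with and without these libraries, except for CagriSema in quadriceps. There the fits without these sets of libraries are given by the members' medians only. Leaving these libraries out was decided once the data had been seen.

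Promoter sequences of 4 members are shown because the groups did not overlap for them in at least 1 comparison below: Pfkm and Gapdh in quadriceps, Ldha and Ugp2 in liver. Each is the 250 bases before the gene start in RefSeq's GRCr8 build, read 5′ to 3′ on the gene's strand. Capitals mark ACGTG or its reverse complement CACGT, 1 form of the core that hypoxia-inducible factors bind, searched on both strands. The other form, GCGTG, was not searched or marked. In Ldha a pair of overlapping matches forms the palindrome CACGTG. Pfkm lies at chr7:131113849-131114098 on the plus strand, Gapdh at chr4:159652468-159652717 on the minus strand, Ldha at chr1:106507842-106508091 on the plus strand and Ugp2 at chr14:99698003-99698252 on the minus strand.
Pfkm: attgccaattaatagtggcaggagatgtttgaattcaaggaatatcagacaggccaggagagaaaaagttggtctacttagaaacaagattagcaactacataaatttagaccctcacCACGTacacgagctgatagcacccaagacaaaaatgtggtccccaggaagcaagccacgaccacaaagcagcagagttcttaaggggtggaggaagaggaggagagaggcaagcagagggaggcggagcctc
Gapdh: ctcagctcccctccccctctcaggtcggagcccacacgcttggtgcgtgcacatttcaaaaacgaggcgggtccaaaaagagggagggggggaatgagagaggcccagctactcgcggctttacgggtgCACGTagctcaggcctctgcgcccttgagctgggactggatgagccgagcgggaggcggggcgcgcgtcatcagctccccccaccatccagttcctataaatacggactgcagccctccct
Ldha: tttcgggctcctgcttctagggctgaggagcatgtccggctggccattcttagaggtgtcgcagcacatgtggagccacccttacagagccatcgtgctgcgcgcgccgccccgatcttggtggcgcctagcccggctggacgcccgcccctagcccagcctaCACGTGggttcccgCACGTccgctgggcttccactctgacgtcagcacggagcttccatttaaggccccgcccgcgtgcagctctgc
Ugp2: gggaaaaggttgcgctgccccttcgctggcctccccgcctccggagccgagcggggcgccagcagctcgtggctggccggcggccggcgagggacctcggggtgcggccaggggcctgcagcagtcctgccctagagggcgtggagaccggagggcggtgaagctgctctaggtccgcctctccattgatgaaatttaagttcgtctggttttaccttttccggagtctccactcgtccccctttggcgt
The RefSeq table held a promoter for 31 of the 35 members, and Pgk1, RGD1562690, Fbp2 and Slc2a4 had none there. This ACGTG form was in 12 of the 31 (38.7%), against 16.6% of 33469 promoters of the same length. The GC box core GGGCGG was in 16 members (51.6%) against 30.5%, and CAGCTG, an E-box that myogenic factors bind, in 4 (12.9%) against 12.0%. Ugp2 has no ACGTG in this window. These matches are letters in a window and say nothing of binding in these tissues.

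Weight-matched against vehicle quadriceps asked what food restriction did to these genes in muscle. Of 35 members 8 rose, 1 fell and 26 did not pass the test. The background was 2.29% of 12471 genes called, 1.11% higher and 1.17% lower. The 8 that rose were Gpi, Pfkm, Gapdh, Pgk1, Eno3 and Pkm of glycolysis, Fbp2 of the reverse path and Pygm of glycogen breakdown, and Pfkl fell. Changes were modest, from 1.31-fold for Pgk1 to 1.82-fold for Fbp2. The median log2 fold change of the members was 0.28, against -0.01 over all genes tested, and 27 were positive against 46.8% of all genes. At an unadjusted p under 0.05, 19 members were higher and 3 lower, against 8.90% and 10.3% of all genes. Scaling by library totals alone gave 6 higher and 2 lower calls and turned Gys1 and Slc16a1 to negative values.

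These calls depended on which libraries were in the fit, in the vehicle group and in the others. No member was called without vehicle libraries 2 and 5, where the median was 0.20 and 19 genes passed in all, nor without 2, 5 and 8 or without 5, 7 and 8, where the medians were 0.19 and 0.21. The count of 9 became 16 without vehicle library 1 or 6, 5 without vehicle 7, 3 without vehicle 2 or 8 and 2 without vehicle 5. It became 2 without weight-matched library 25, 26, 28 or 30, 4 without 27, and 5 without CagriSema library 36, 37, 39 or 40. When each of the 23 libraries was dropped in turn, Gapdh and Pfkm passed in all 23 fits, Eno3 in 18, Fbp2 in 16, Pkm in 14, Gpi in 9, Pfkl and Pgk1 in 7 and Pygm in 4. A fit of these 2 groups alone called no member, and DESeq2's Wald test called 14 higher and 2 lower. Calls over all genes by DESeq2 or with library totals are not given beside these counts.

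**Figure D1:**
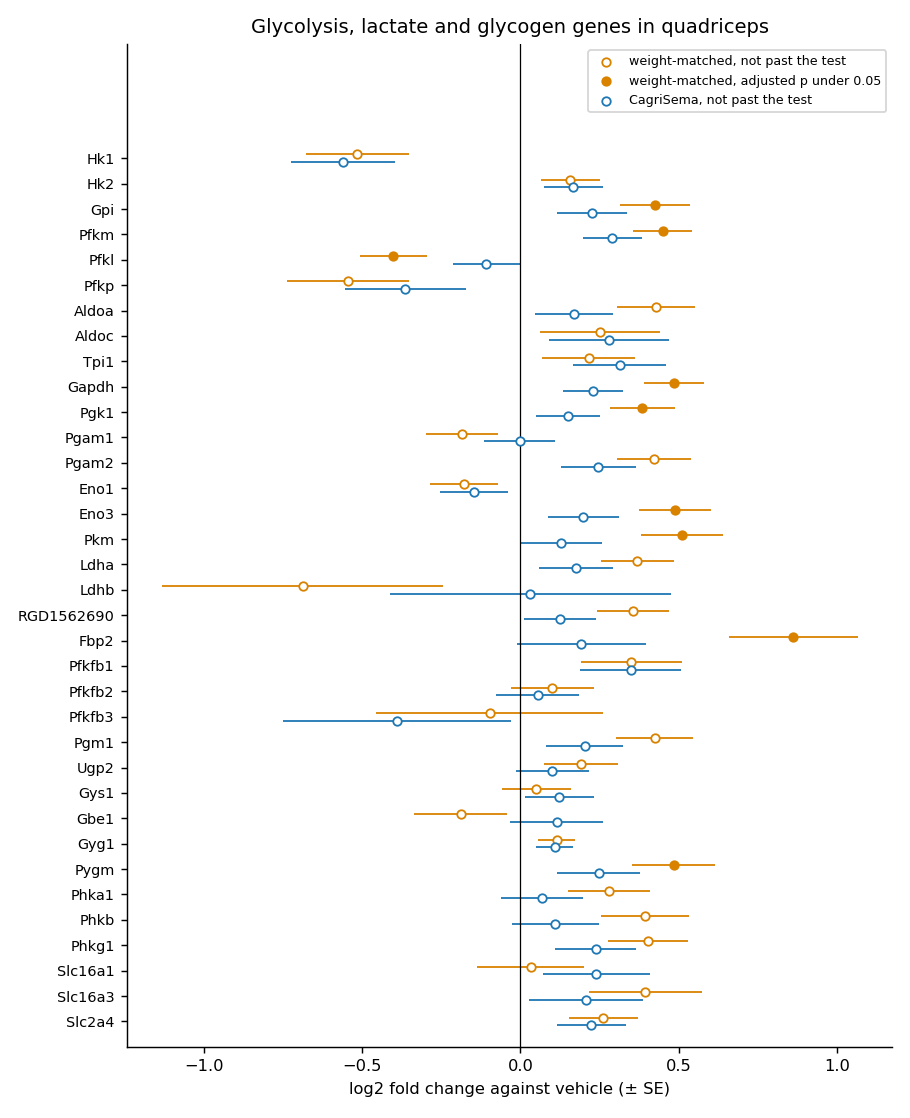
Log2 fold change ± SE against vehicle in quadriceps for each of the 35 members, weight-matched in orange and CagriSema in blue, with filled points for adjusted p under 0.05. For weight matching 27 of 35 points lie above 0 and 9 are filled, and for CagriSema 29 lie above 0 and none is filled.

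At the entry of glucose, no member passed in quadriceps. Slc2a4 (ENSRNOG00000017226) encodes GLUT4, the glucose transporter that insulin and contraction bring to the surface of muscle cells. It ran from 277 to 567 CPM in vehicle libraries (median 519), from 524 to 628 in weight-matched (584) and from 470.1 to 679.8 with CagriSema (562). Groups overlapped, vehicle library 2 was the lowest, and the change with weight matching was 0.26 ± 0.11 (log2 fold change ± SE, adjusted p = 0.190). Hk2 (ENSRNOG00000006116), the insulin-responsive hexokinase that traps glucose in muscle, ran from 179 to 262 CPM in vehicle (median 203), 196 to 286 in weight-matched (235) and 207 to 291 in CagriSema libraries (226). Its ranges overlapped throughout, with a change of 0.16 ± 0.09 (adjusted p = 0.366). Hk1, the hexokinase of most other tissues, ran from 7.86 to 19.5 CPM in vehicle (median 9.17), 5.44 to 10.5 in weight-matched (6.85) and 6.57 to 9.01 with CagriSema (7.13). Vehicle library 2 was the highest of all, and Hk1 stood at -0.52 ± 0.16 (adjusted p = 0.0830).

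In the upper part of glycolysis, Gpi (ENSRNOG00000023150) encodes the isomerase that makes fructose-6-phosphate. It ran from 727 to 1194 CPM in vehicle (median 792), 959 to 1478 in weight-matched (1252) and 903 to 1195 in CagriSema libraries (1045), and rose 1.34-fold with weight matching (0.43 ± 0.11, adjusted p = 0.0443), with overlapping ranges. Pfkm (ENSRNOG00000057988), the muscle subunit of phosphofructokinase, which commits sugar to glycolysis, stood at 4002, 3046, 3919, 2339, 3991, 3451 and 3248 CPM in vehicle libraries 1, 2, 4, 5, 6, 7 and 8. Weight-matched libraries ran from 4347 to 5053 CPM (median 4667) and CagriSema libraries from 3817 to 4634 (4066). Every weight-matched library lay above every vehicle library, and the rise was 1.37-fold (0.45 ± 0.09, adjusted p = 0.0149). Ranges did not overlap, weight-matched above vehicle, for 2 members, Pfkm and Gapdh, against 0.176% of all genes.

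Of the other phosphofructokinase subunits, 1 fell and 1 did not pass. Pfkl (ENSRNOG00000001214), the liver-type subunit, ran from 9.94 to 16.52 CPM in vehicle (median 12.7), 7.76 to 12.1 in weight-matched (10.5) and 11.3 to 14.4 in CagriSema libraries (12.0). It fell to 0.757 of the vehicle level (-0.40 ± 0.11, adjusted p = 0.0459), and the ranges overlapped. Pfkp, the platelet-type subunit, did not pass (-0.55 ± 0.19, adjusted p = 0.118). Aldoa (ENSRNOG00000052802), the muscle aldolase that splits the sugar, ran from 6306 to 12115 CPM in vehicle (median 8718), 10339.7 to 15510.2 in weight-matched (13076) and 9518 to 12217 with CagriSema (10496). It stood at 0.43 ± 0.12 (adjusted p = 0.0621) with overlapping ranges, and Aldoc, the brain-type aldolase, at 0.25 ± 0.19 (adjusted p = 0.491). Tpi1, the triose-phosphate isomerase gene, was counted at 6.28 to 17.95 CPM in quadriceps and 0.383 to 1.44 CPM in liver, and did not pass (0.22 ± 0.15, adjusted p = 0.439). Whether this row holds all reads of the gene was not tested.

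In the lower part, Gapdh (ENSRNOG00000018630), which oxidises glyceraldehyde-3-phosphate and is often used as a reference gene, stood at 5257, 4498, 5500.5, 3613, 5325, 4368 and 3898 CPM in vehicle libraries 1, 2, 4, 5, 6, 7 and 8. Weight-matched libraries ran from 5613 to 7768 CPM (median 6523) and CagriSema libraries from 4714 to 6256 (5470.0). All 8 weight-matched libraries were above the vehicle range, a 1.40-fold rise (0.49 ± 0.10, adjusted p = 0.0129). Pgk1 (ENSRNOG00000058249), which makes the first ATP of the pathway, ran from 737 to 1208 CPM in vehicle (median 917), 1089 to 1543 in weight-matched (1338) and 975 to 1275 with CagriSema (1065), and rose by 0.39 ± 0.10 (adjusted p = 0.0464). Eno3 (ENSRNOG00000004078), the muscle enolase, ran from 3456 to 5937 CPM in vehicle (median 4305), 5408 to 8445 in weight-matched (6921) and 4777 to 6320.4 with CagriSema (5399), and rose by 0.49 ± 0.11 (adjusted p = 0.0290). Weight-matched and vehicle ranges of both genes overlapped, with vehicle library 5 the lowest and weight-matched library 25 the highest of all.

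Pkm (ENSRNOG00000011329), the pyruvate kinase gene of muscle and most tissues, ran from 1934 to 3562 CPM in vehicle (median 2922), 3099.8 to 5143 in weight-matched (4376) and 2587 to 3496 with CagriSema (3091). It rose 1.43-fold (0.51 ± 0.13, adjusted p = 0.0395), with overlapping ranges. Pgam2, the muscle phosphoglycerate mutase, stood at 0.42 ± 0.12 (adjusted p = 0.0565), while its widely expressed relative Pgam1 stood at -0.18 ± 0.11 (adjusted p = 0.384) and Eno1, the enolase of most tissues, at -0.18 ± 0.11 (adjusted p = 0.375).

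**Figure D2:**
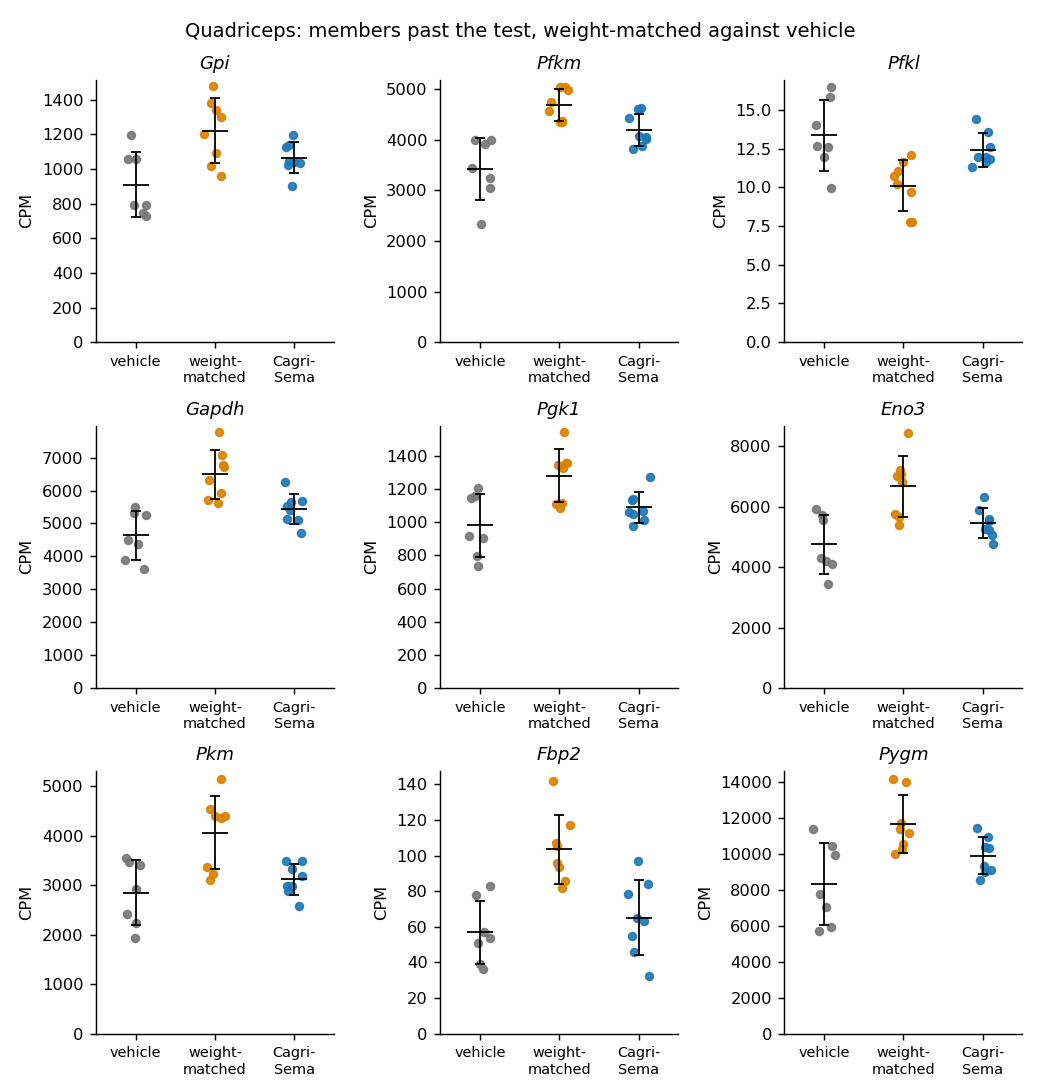
CPM of the 9 members past the test in quadriceps, weight-matched against vehicle, in 9 panels with 1 point per library and the mean ± SD of each group as bars. Vehicle and weight-matched points are apart for Pfkm and Gapdh and overlap for the other 7, and CagriSema means lie between the other means in all 9 panels.

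At the step to lactate, Ldha (ENSRNOG00000013009), the muscle subunit of lactate dehydrogenase, ran from 1841 to 2909 CPM in vehicle (median 2224), 2413 to 3649 in weight-matched (3198) and 2062 to 3112 with CagriSema (2681). The ranges overlapped and the change did not pass (0.37 ± 0.12, adjusted p = 0.0823). Counts of RGD1562690 (ENSRNOG00000009373), a row known here by its locus name only, were 7.71% to 8.73% of those of Ldha in every quadriceps library. It stood at 0.35 ± 0.11 (adjusted p = 0.0901), and whether the 2 rows share reads was not tested. Ldhb (ENSRNOG00000013000), the heart subunit, which slow fibres favour, ran from 60.0 to 679 CPM in vehicle (median 183), 66.0 to 307 in weight-matched (182) and 136 to 447 with CagriSema (295). Its widest spread was within the vehicle group, from library 1 to library 8, and its change was -0.69 ± 0.44 (adjusted p = 0.414). Slc16a3 (ENSRNOG00000036677), the lactate exporter MCT4 of fast fibres, ran from 127 to 282 CPM in vehicle (median 209), 186 to 343 in weight-matched (264) and 143 to 296 with CagriSema (230.4), with no call (0.40 ± 0.18, adjusted p = 0.232). Slc16a1 (ENSRNOG00000019996), the transporter MCT1 that takes lactate up in oxidative fibres, ran from 54.8 to 147 CPM in vehicle (median 99.6), 68.7 to 120.4 in weight-matched (106) and 88.1 to 137 with CagriSema (123), again with no call (0.03 ± 0.17, adjusted p = 0.943).

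On the reverse path and its switch, Fbp2 (ENSRNOG00000017637), the muscle fructose-bisphosphatase, which undoes the phosphofructokinase step, stood at 83.0, 36.1, 57.2, 39.05, 77.9, 51.1 and 53.9 CPM in vehicle libraries 1, 2, 4, 5, 6, 7 and 8. Weight-matched libraries ran from 82.1 to 142 CPM (median 100.5) and CagriSema libraries from 32.3 to 97.1 (64.3). Only vehicle library 1 reached into the weight-matched range, and the rise was 1.82-fold (0.86 ± 0.20, adjusted p = 0.0319). The genes Pfkfb1, Pfkfb2 and Pfkfb3, whose enzymes set the level of fructose-2,6-bisphosphate, stood at 0.35, 0.10 and -0.10 with no call, and vehicle library 2 was the lowest for Pfkfb1 at 34.5 CPM.

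Among the glycogen genes, Pygm (ENSRNOG00000021090), the muscle phosphorylase that releases glucose units from glycogen, ran from 5751 to 11388 CPM in vehicle (median 7797), 10026 to 14199 in weight-matched (11284) and 8573 to 11443 with CagriSema (9849.9). It rose 1.40-fold (0.48 ± 0.13, adjusted p = 0.0499), at the edge of the threshold and with overlapping ranges. Its activating kinase subunits Phka1, Phkb and Phkg1 stood at 0.28, 0.39 and 0.40 with no call. Gys1 (ENSRNOG00000020812), the muscle glycogen synthase, ran from 289 to 603 CPM in vehicle (median 519), 420.5 to 533 in weight-matched (519.7) and 432 to 577 with CagriSema (543), and stood at 0.05 ± 0.11 (adjusted p = 0.847). Pgm1 (ENSRNOG00000009889), which joins glycogen to glycolysis through glucose-1-phosphate, ran from 1027 to 1805 CPM in vehicle (median 1151), 1517 to 2177 in weight-matched (1860.2) and 1283 to 1753 with CagriSema (1612). It stood at 0.42 ± 0.12 (adjusted p = 0.0619). The UDP-glucose gene Ugp2 at 0.19, the primer gene Gyg1 at 0.11 and the branching enzyme gene Gbe1 at -0.19 did not pass either.

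Markers of fibre types and other cells are given beside these changes. All 8 fast-fibre markers had positive values with weight matching (median 0.34), of which Tnni2 passed (0.34 ± 0.09, adjusted p = 0.0457). At an unadjusted p under 0.05 all 8 were higher, against 8.90% of all genes. All 10 slow-fibre markers had negative values (median -0.98) with none past edgeR's test. Of these, 1 was lower at an unadjusted p under 0.05, against 10.3% of all genes. Summed slow-fibre markers ran from 816 to 13631 CPM in vehicle, 485 to 6628 in weight-matched and 2302 to 8743 CPM with CagriSema, and none of the 10 was at 0. Fast-fibre sums ran from 77579 to 140755, from 113932 to 174286 and from 103886 to 136422 CPM. Of 5 general skeletal muscle markers 3 had positive and 2 negative values with weight matching (median 0.225). The 3 were higher at an unadjusted p under 0.05, and none of the 5 passed the adjusted test. Sums of this list ran from 56718 to 73168 CPM in vehicle, 65322 to 89924 in weight-matched and 65153 to 76203 with CagriSema. All 5 fibroblast markers tested had negative values, with Col1a1 (-1.52 ± 0.35, adjusted p = 0.0315) and Col3a1 (-1.27 ± 0.28, adjusted p = 0.0262) past the test, and the list's sums ran from 707 to 1639 CPM in vehicle, 366 to 753 in weight-matched and 388 to 705 with CagriSema. Both erythroid markers (median -1.03) and 3 of 5 endothelial markers (median -0.34) were lower at an unadjusted p under 0.05, with none past the adjusted test. Erythroid sums ran from 38.02 to 298 CPM in vehicle and 21.7 to 113 in weight-matched libraries, and endothelial sums from 153 to 258 and 127 to 193 CPM. The part of these markers in the results was not tested, and in bulk tissue fewer cells of a type and less RNA per cell cannot be told apart. Without vehicle libraries 5, 7 and 8 Gapdh stood at 0.34 (adjusted p = 0.0867) and Pfkm at 0.33 (adjusted p = 0.0696).

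**Figure D3:**
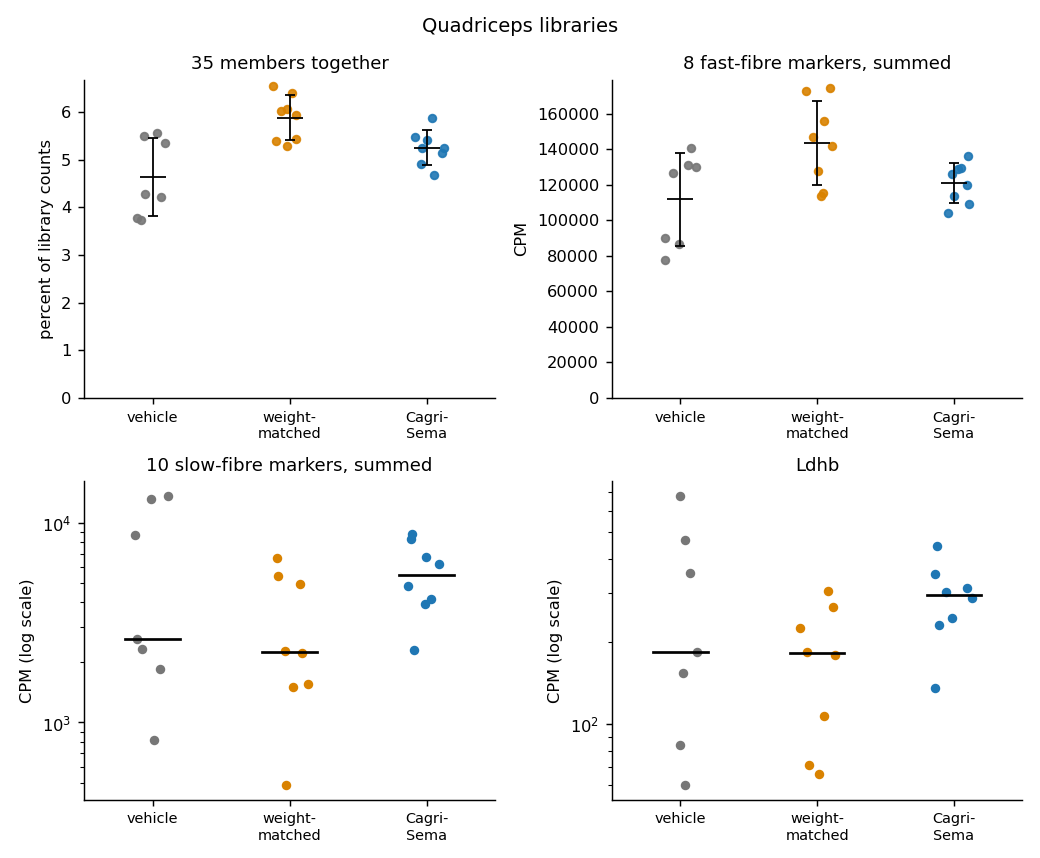
Quadriceps libraries by group: the share of counts taken by the 35 members (percent) and summed fast-fibre markers (CPM) with mean ± SD bars, and summed slow-fibre markers and Ldhb (CPM, log scales) with lines at the medians. Members took 3.73% to 5.56% of counts in vehicle, 5.28% to 6.53% in weight-matched and 4.68% to 5.88% in CagriSema libraries. Vehicle libraries 7 and 8 stand above all others in slow-fibre markers.

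The comparison of CagriSema with vehicle in quadriceps shares the vehicle libraries with the comparison above. No member was called by edgeR's quasi-likelihood test, with 5 higher and 1 lower at an unadjusted p under 0.05, and DESeq2 called none, against a background of 0.0321% of genes called and 3.74% higher and 6.58% lower unadjusted. The members' median was 0.17 against -0.01 over all genes, and 29 were positive against 47.9% of all genes. The larger positive values were 0.35 ± 0.16 for Pfkfb1 (adjusted p = 0.445), 0.31 ± 0.15 for Tpi1 (adjusted p = 0.452) and 0.29 ± 0.09 for Pfkm (adjusted p = 0.307). Hk1 had the most negative value, -0.56 ± 0.16 (adjusted p = 0.263). Gapdh stood at 0.23 ± 0.09 (adjusted p = 0.392), Ldha at 0.18 ± 0.12 (adjusted p = 0.611), Pygm at 0.25 ± 0.13 (adjusted p = 0.529) and Ldhb at 0.03 ± 0.44 (adjusted p = 0.987), a value that turned negative with scaling by library totals. Without vehicle libraries 2 and 5 the median of the members was 0.06, and without 5, 7 and 8 it was 0.05. Slow-fibre markers had a median of -0.14 here and fast-fibre markers 0.11.

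CagriSema was compared with weight matching in quadriceps to ask what the drug did beyond food restriction. Again edgeR called no member, with 2 higher and 8 lower at an unadjusted p under 0.05, and DESeq2 called none, against 0.128% of genes called and 3.40% higher and 4.25% lower unadjusted. The median was -0.16 against 0.00 over all genes, and 11 members were positive against 49.9% of all genes, with 24 negative, or 19 with scaling by library totals. Fbp2 had the most negative value, -0.67 ± 0.20 (adjusted p = 0.303), lower with CagriSema, and Ldhb the largest in the other direction, 0.72 ± 0.43 (adjusted p = 0.724). Pkm stood at -0.38 ± 0.13 (adjusted p = 0.412), Gapdh at -0.26 ± 0.09 (adjusted p = 0.502) and Pfkl at 0.29 ± 0.10 (adjusted p = 0.492). All 10 slow-fibre markers were positive here (median 0.84) and all 8 fast-fibre markers negative (median -0.29), with none past the test. At an unadjusted p under 0.05, 3 fast-fibre markers were lower and no slow-fibre marker was higher. The part of these markers in these values was not tested.

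In liver, RNA of Ldha, RGD1562690, Slc16a1 and Gapdh was called lower with weight matching and that of Ugp2 higher. Of 31 members tested 4 fell, 1 rose and 26 did not pass, against 7.02% of 12702 genes called, 4.53% lower and 2.49% higher. The 1 rise among 31 is near the share of all genes called higher. At an unadjusted p under 0.05, 5 members were higher and 8 lower, against 9.33% and 15.1% of all genes. The members' median was -0.08 against -0.01 over all genes, and 12 were positive against 48.1%. With scaling by library totals, which moved the median of all genes to 0.11, the split was 2 lower and 3 higher. The count of 5 became 3 without weight-matched library 30 or 31, it was 4 without vehicle libraries 4 and 6, and it was 7 without vehicle library 1. Without libraries 4 and 6 Ldha stood at -1.07 (adjusted p = 0.00113), RGD1562690 at -1.06 (adjusted p = 0.00123), Ugp2 at 0.68 (adjusted p = 0.0373) and Slc16a1 at -0.54 (adjusted p = 0.00423).

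Ldha had the lowest adjusted p of the liver members. It stood at 1317, 1062, 1293, 2201, 1076, 1394, 962 and 1575 CPM in vehicle libraries 1 to 8. Weight-matched libraries ran from 372 to 899.9 CPM (median 519) and CagriSema libraries from 922 to 1281 (1003). Every weight-matched library was below every vehicle and every CagriSema library. The fall against vehicle was to 0.426 of its level (-1.23 ± 0.18, adjusted p = 0.000782), and it passed whichever of the 23 libraries was dropped. RGD1562690 ran from 83.6 to 224 CPM in vehicle (median 106), 30.8 to 68.3 in weight-matched (43.5) and 71.3 to 108 with CagriSema (79.8), and changed by -1.31 ± 0.20 (adjusted p = 0.000802). Its counts were 7.46% to 10.2% of those of Ldha, and whether the 2 rows are separate signals was not tested. Ranges did not overlap for these 2 members, weight-matched below vehicle, against 0.457% of all genes.

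Ugp2 (ENSRNOG00000008079), which makes the UDP-glucose that glycogen synthase adds to glycogen, ran from 215 to 535 CPM in vehicle (median 498), 495 to 940.2 in weight-matched (753) and 265 to 452 with CagriSema (395). It rose 1.65-fold with weight matching (0.73 ± 0.18, adjusted p = 0.0174), and weight-matched libraries 29 and 32 lay within the vehicle range. Slc16a1, the lactate transporter, ran from 37.3 to 83.5 CPM in vehicle (median 60.4), 37.6 to 58.6 in weight-matched (40.9) and 44.1 to 59.6 with CagriSema (49.3), and fell to 0.725 of its level (-0.46 ± 0.12, adjusted p = 0.0255). Vehicle library 4 lay below every weight-matched library, and vehicle libraries 1 and 7, at 57.9 and 48.6 CPM, lay within their range. Gapdh ran from 332 to 946 CPM in vehicle (median 461), 239 to 427 in weight-matched (395) and 401 to 522 with CagriSema (492). Vehicle libraries 4 and 6, at 946 and 850 CPM, were well above the other 6. Its change was -0.56 ± 0.17 (adjusted p = 0.0449), and -0.24 without libraries 4 and 6 (adjusted p = 0.190).

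Of the liver members that did not pass, Pfkm stood at 0.69 ± 0.23 (adjusted p = 0.0617) and Eno1 at -0.42 ± 0.14 (adjusted p = 0.0742). Phkg1 had the largest value, 1.29 ± 0.56 (adjusted p = 0.159), with 0.228 to 5.91 CPM in vehicle and 0.968 to 8.67 in weight-matched libraries. In vehicle library 1, with its muscle markers, Pygm was at 5.45 CPM and Pgam2 at 3.05 CPM, the highest of all liver libraries. Erythroid markers fell beside the liver changes, 2 of 2 past the test (Hbb -1.76 ± 0.33, adjusted p = 0.00270), with sums of 45.6 to 336 CPM in vehicle, 18.01 to 52.0 in weight-matched and 47.4 to 70.5 with CagriSema. Of 4 fibroblast markers tested all had positive values (median 0.32) and Pdgfra rose (0.66 ± 0.17, adjusted p = 0.0204), with sums of 74.0 to 142 CPM in vehicle and 75.3 to 171 in weight-matched libraries. Of 8 hepatocyte markers 2 fell (median -0.18), with sums of 118844 to 180106, 110195 to 136672 and 105416 to 131702 CPM. No erythroid or hepatocyte marker and 1 fibroblast marker was at 0 in a whole group, and the part of these lists in the results was not tested.

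**Figure D4:**
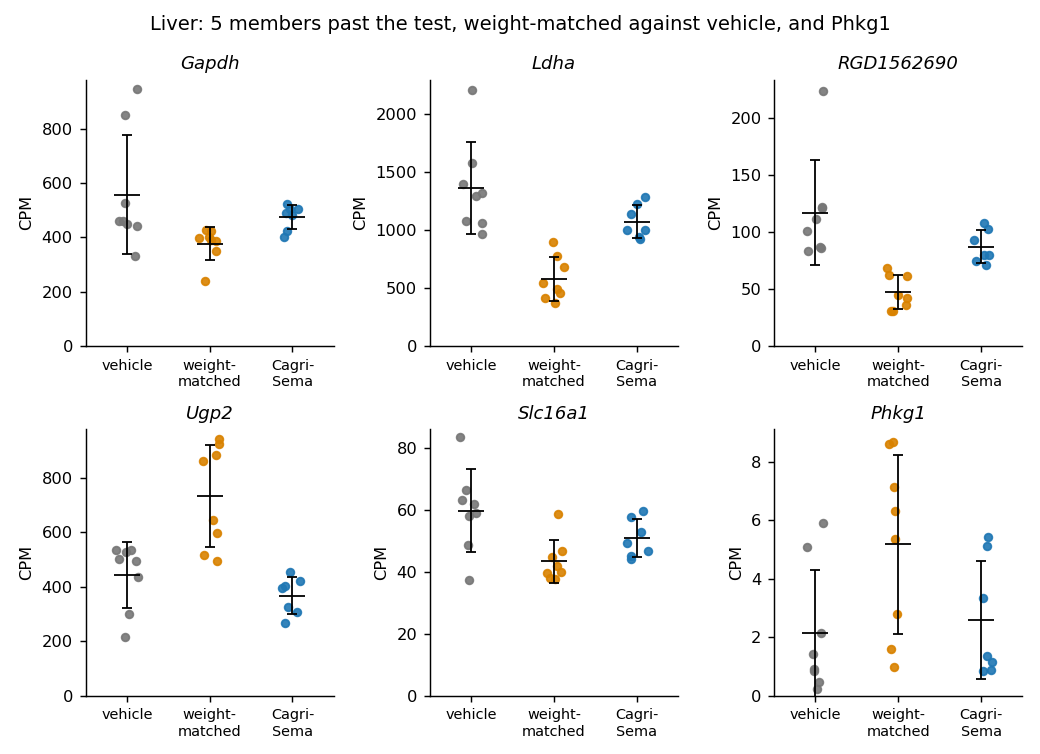
CPM in liver of the 5 members past the test, weight-matched against vehicle, and of Phkg1, which had the largest value without passing, with 1 point per library and the mean ± SD of each group. Weight-matched points of Ldha and RGD1562690 lie below all others, and weight-matched points of Ugp2 lie above all CagriSema points.

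CagriSema against vehicle in liver, which shares these vehicle libraries, called no member by edgeR's quasi-likelihood test, with 2 higher and 4 lower at an unadjusted p under 0.05, and none by DESeq2, against 0.354% of genes called and 6.45% higher and 11.4% lower unadjusted. The median was 0.03 against -0.02 over all genes, and 16 members were positive against 47.3% of all genes, or 22 with scaling by library totals. The count stayed at 0 without vehicle libraries 4 and 6 and without vehicle library 1, where the medians were 0.03 and 0.07. Ldha stood at -0.34 ± 0.18 (adjusted p = 0.317), Ugp2 at -0.27 ± 0.19 (adjusted p = 0.427), Slc16a1 at -0.24 ± 0.13 (adjusted p = 0.321) and Gapdh at -0.23 ± 0.18 (adjusted p = 0.472). The most negative value was that of Eno3, -0.53 ± 0.19 (adjusted p = 0.184), and the most positive that of Hk1, 0.46 ± 0.17 (adjusted p = 0.190). Of 8 hepatocyte markers 1 was called lower (median -0.30), and of 4 fibroblast markers tested 1 was called higher (median 0.49). At an unadjusted p under 0.05, 2 of 2 erythroid markers were lower (median -1.02) and 3 of 4 stellate cell markers higher (median 0.49). None of these erythroid or stellate markers passed the adjusted test, and the part of these lists in the results was not tested.

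CagriSema against weight matching in liver called 3 of 31 members, against 0.535% of genes, 0.244% higher and 0.291% lower. The 3 include both Ldha and RGD1562690, and whether these rows are separate signals was not tested. Ldha was 1.85-fold higher with CagriSema (0.89 ± 0.18, adjusted p = 0.0209), and RGD1562690 was higher by 0.89 ± 0.20 (adjusted p = 0.0438). Ugp2 was lower, at 0.501 of the weight-matched level (-0.998 ± 0.19, adjusted p = 0.0137). The ranges did not overlap for any of the 3, against 0.583% of genes apart and higher and 0.685% apart and lower. This comparison uses the same weight-matched libraries as the one above. With each library dropped in turn Ugp2 passed in all 23 fits, Ldha in 18 and RGD1562690 in 9. The count of 3 became 1 without weight-matched library 25, 27, 28 or 31 or CagriSema library 39. Both erythroid markers were higher with CagriSema at an unadjusted p under 0.05 (median 0.85) and all 4 Kupffer cell markers had positive values (median 0.40), none past the adjusted test, and their part in these results was not tested. Kupffer sums ran from 77.6 to 268 CPM in weight-matched and 207 to 305 in CagriSema libraries.

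Whether weight matching acted differently in the 2 tissues was tested as an interaction over 46 libraries and 14110 genes. In this fit the filter and the TMM scaling were run on both tissues together. Aldoc, Fbp2, Slc16a3 and Slc2a4, too low to test within liver, thus entered the test, and none of them was called. Of 35 members 6 differed, against 2.76% of genes, 5 with a more positive change in quadriceps and 1 with a more negative one. The 6 include both Ldha and RGD1562690, and whether these rows are separate signals was not tested. The differences, quadriceps minus liver, were 1.60 ± 0.23 for Ldha (adjusted p = 5.54e-05), 1.66 ± 0.24 for RGD1562690 (adjusted p = 5.54e-05) and 1.05 ± 0.21 for Gapdh (adjusted p = 0.00424). They were 0.68 ± 0.19 for Pgk1 (adjusted p = 0.0419) and 0.56 ± 0.15 for Pgm1 (adjusted p = 0.0293). Hk1 differed the other way, by -0.90 ± 0.24 (adjusted p = 0.0255), at -0.52 in quadriceps and 0.39 in liver. Without quadriceps vehicle libraries 2 and 5 and liver vehicle libraries 4 and 6, Ldha, RGD1562690 and Gapdh were still called and Pgk1, Pgm1 and Hk1 were not. With scaling by library totals, which moved the median of all genes to -0.22, the split was 3 positive and 4 negative. For CagriSema against vehicle no member differed by edgeR's quasi-likelihood test, with 7 positive and 1 negative at an unadjusted p under 0.05, against 0.149% of genes called and 7.90% positive and 7.10% negative unadjusted. DESeq2 called 2 members and 188 genes in all.

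**Figure D5:**
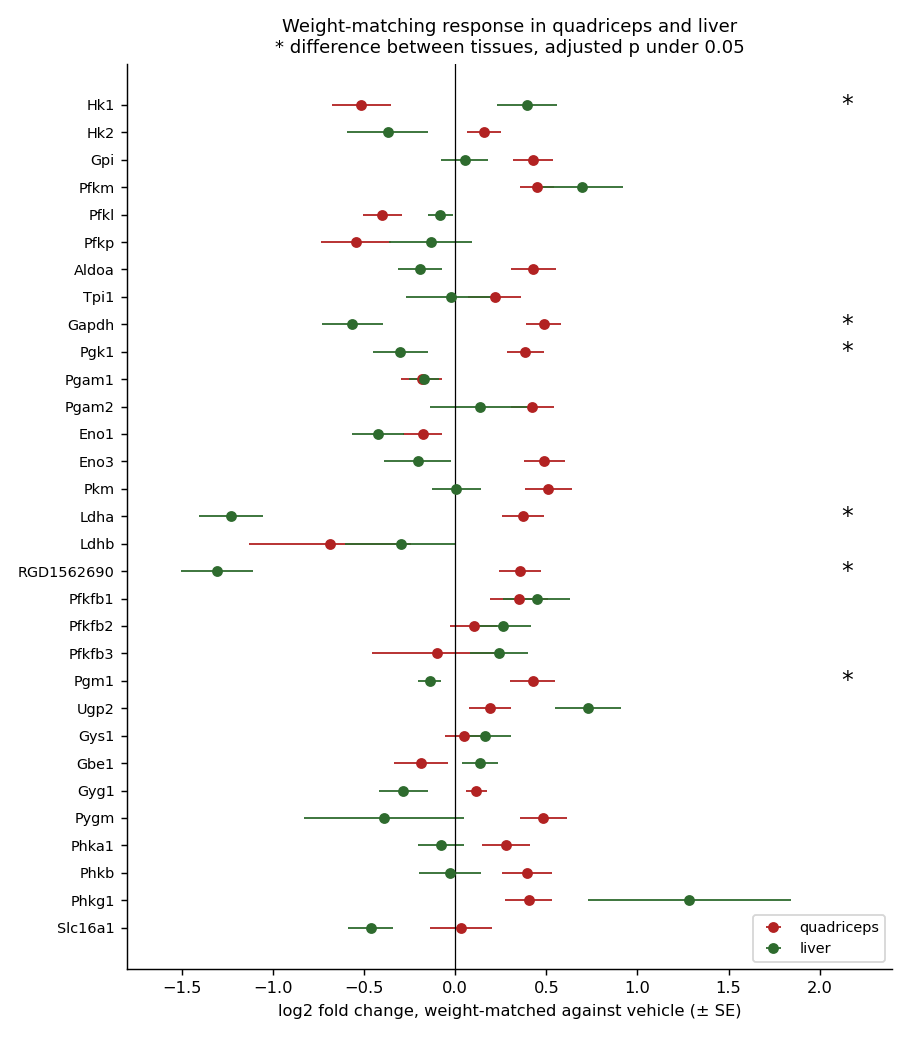
Log2 fold change ± SE of weight-matched against vehicle for the 31 members tested in both tissues, quadriceps in red and liver in green, with a star where the difference between tissues had an adjusted p under 0.05. Ldha and RGD1562690 lie furthest apart among the starred members, above 0 in quadriceps and below -1 in liver.

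Other genes of glucose and glycogen handling were taken from a list of 69, of which 65 matched a row. In quadriceps 1 of 54 tested rose with weight matching and none fell, and the median was 0.06, against 2.29% of all genes called. This was Ppp1r3a (0.42 ± 0.10, adjusted p = 0.0276), the muscle glycogen-targeting subunit of protein phosphatase 1. At an unadjusted p under 0.05, 13 of the 54 were higher with weight matching and 4 lower, against 8.90% and 10.3% of all genes. None of the 54 was called by edgeR for CagriSema against vehicle or against weight matching. Unadjusted, 4 were higher and 3 lower for CagriSema against vehicle, beside 3.74% and 6.58% of all genes. For CagriSema against weight matching 0 were higher and 5 lower, beside 3.40% and 4.25% of all genes. In liver 3 of 61 rose and 5 fell with weight matching, against 7.02% of all genes. Txnip, a glucose-responsive inhibitor of glucose uptake, rose by 0.86 ± 0.14 (adjusted p = 0.00122). Got1, the cytosolic aspartate aminotransferase gene, fell by 1.12 (SE 0.26, adjusted p = 0.0107), and Fbp1, the liver fructose-bisphosphatase gene of gluconeogenesis, by 0.57 (SE 0.13, adjusted p = 0.0115). With CagriSema against vehicle 1 of 61 fell, against 0.354% of all genes, namely Pck1, the entry enzyme of gluconeogenesis (-0.75 ± 0.14, adjusted p = 0.0433). For CagriSema against weight matching none of the 61 was called. At an unadjusted p under 0.05, 5 were higher and 3 lower there, against 5.24% and 5.32% of all genes. For weight matching 2 of 63 differed between the tissues, against 2.76% of all genes, Got1 by 1.10 ± 0.32 (adjusted p = 0.0497) and Nhlrc1, which encodes malin, a ubiquitin ligase of glycogen metabolism, by 1.08 ± 0.30 (adjusted p = 0.0411).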

How the data were processed

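Bulk RNA libraries were made from extracted RNA (RNeasy Minikit) with Twist unique molecular identifiers, per the labels' protocols. Reads were trimmed with fastp 0.23.1 and aligned with STAR 2.5.2b, per the submitters' processing notes. For the counter, genome build, annotation and any use of the identifiers: not given in the sources used here. The authors deposited whole-number counts per gene, not normalized, for both tissues. 1 further count column matched no sample and was not used.

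Counts were filtered with filterByExpr (minimum count 10), scaled by TMM and tested with edgeR 4.0.16 (quasi-likelihood F test, R 4.3.3), with the 3 groups of a tissue in 1 fit and Benjamini-Hochberg adjustment over all genes tested at a threshold of 0.05. Differences between tissues were an interaction term over 46 libraries. DESeq2 1.42.0 was an alternative, with other scalings and filters, 2 groups alone, a replicate block and left-out libraries. The test was checked on simulated data with the same spread for every gene and no outlying library. That check therefore does not cover libraries that stood apart. No pair of libraries agreed within sampling noise (lowest chi-square per degree of freedom 5.72). Intervals and floors (3 counts) cover counting error only. Members, lists and tests were chosen with earlier results of these data known. Described in full were members past a threshold and 1 gene per role. Of other pathway genes, up to 3 per comparison with the lowest p were named. Gene lengths were not used, so levels are not compared between genes.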

Additional observations from a re-analysis of the deposited data

Results flagged for a closer look

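The rule for an outlying library was set to flag about 1 in 20 groups by chance, a rate not measured here. Of 117 groups of libraries examined over 21 members, 10 held a library far from the rest of its group. In quadriceps this was Hk1 in vehicle library 2, at 19.5 CPM with the next library at 11.1. In liver, vehicle library 4 stood high for Aldoa (94.6 CPM, next 56.2), Pgk1 (353 CPM, next 192) and RGD1562690 (224 CPM, next 122). Liver vehicle library 2 stood high for Pgm1 at 246 CPM, and liver vehicle library 1, which held muscle markers, for Pygm at 5.45 CPM. Among weight-matched liver libraries, library 31 was low for Gapdh at 239 CPM, library 26 was low for Pkm at 6.81 CPM and for Pygm at 0.246 CPM, and library 25 was high for Slc16a1 at 58.6 CPM.

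The change with weight matching differed between quadriceps and liver for 6 members by the interaction test of edgeR. The log2 differences, quadriceps minus liver, were 1.66 for RGD1562690, 1.60 for Ldha, 1.05 for Gapdh, 0.68 for Pgk1, 0.56 for Pgm1 and -0.90 for Hk1.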

How the results depend on the processing

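The 9 members called in quadriceps for weight matching against vehicle became 4 with no filter on low counts, 0 with 2 groups alone and 16 with DESeq2's Wald test. They became 0 without vehicle libraries 2 and 5, 0 without 2, 5 and 8 and 0 without 5, 7 and 8, and ran from 2 to 16 when 1 library was left out, while calls over all genes ran from 46 to 645. In liver the 5 became 2 with 2 groups alone and 8 with DESeq2, and ran from 3 to 7 with 1 library left out (532 to 1207 over all genes). The 3 called for CagriSema against weight matching in liver ran from 1 to 3 (27 to 335 over all genes). In the other 3 comparisons within a tissue the count stayed at 0 with each library left out. For the difference between tissues, the 6 became 10 with DESeq2 and 3 without quadriceps vehicle libraries 2 and 5 and liver vehicle libraries 4 and 6, and the 0 for CagriSema became 1 with library totals and 2 with DESeq2. The causes were not tested. Apart from DESeq2's interaction for CagriSema, member counts from DESeq2 or with library totals are not set against calls over all genes. Size factors from DESeq2 left all 23 single-member calls in place, and no call changed direction under any alternative run.

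Library numbers are shared by 22 quadriceps and liver libraries. Deviations of same-numbered libraries correlated from -0.004 to 0.218 (median 0.074), with 6 of 22 over 0.1, and 18 of 22 correlated best with their own number, which is a hint from the data and not the design. With the number as a replicate block the 6 differing members became 5 (Pgm1 0.60, adjusted p = 0.0584) and the 0 for CagriSema stayed 0. Replicate numbers are not shared between treatments within a tissue.

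Counting depth limits Aldoc, Fbp2, Slc16a3 and Slc2a4 in liver, which were not tested.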
